A study of Mus musculus with 12 samples.

Results

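The 8 genes described here encode subunits of the 3 complexes that set up the apical-basal axis of epithelial cells. They are Crb3 and Patj of the Crumbs complex, Pard6b, Pard3 and Prkci of the PAR complex, and Scrib, Dlg1 and Llgl1 of the Scribble complex. They were chosen by gene name from a table of 12208 genes, each name matched 1 row, and all 8 were among the 12027 genes that passed the filter on low counts. RNA was measured in 4 lines of 393P, a mouse lung cancer cell line labelled as epithelial and non-metastatic, grown in RPMI with serum and given no treatment. The lines carried Zeb1 in a form labelled mimetic, Zeb1 in a form labelled deficient, wild-type Zeb1 (WT), or a GFP vector. The title of the series concerns acetylation of ZEB1, and the first pair of labels is read here as forms that imitate or lack that acetylation. Every line was sequenced as 3 libraries labelled as biological replicates, whereas the design text speaks of 2, and the sources used here do not settle the difference. Each form of Zeb1 stands for 1 line, so the form and other differences between lines cannot be told apart, and a p-value covers only how libraries of the same line vary, which may be technical.

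In epithelia the Crumbs complex marks the apical surface, with CRB3 as its membrane protein and PATJ as a scaffold joined through PALS1. The PAR complex of PAR3, PAR6 and atypical protein kinase C sits at the apical side and at the junctions, and the Scribble complex holds the basolateral side; the kinase and LGL proteins exclude each other. ZEB1 is a zinc-finger repressor that drives the epithelial-mesenchymal transition, in which cells lose this axis, and it binds E-box sequences of the form CACCTG.

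The libraries were 3' tag libraries of 24.36 to 39.03 M counts, so a count stands for a transcript near its 3' end and is not divided by gene length. Zeb1 RNA was 228 ± 12.2 CPM (counts scaled to library size) in mimetic, 484 ± 13.1 in deficient and 244 ± 6.87 in WT, against 31.3 ± 2.79 in vector (SD, n = 3 each), which checked that the Zeb1 lines differ from vector but not which form each carries. Of 6 epithelial markers, 5 were in the table, and their summed level ran from 5563 to 5735 CPM in mimetic, 7688 to 7816 in deficient and 4166 to 4320 in WT, against 9051 to 10473 in vector; Epcam was not analysed here. Of 6 fibroblast markers 3 were in the table (Pdgfra, Col1a2 and Col1a1), and they summed to at most 3.47 CPM in any library. Of 6 leukocyte markers only Cd68 was in the table, at no more than 8.43 CPM, and of 5 endothelial markers Kdr, Vwf and Pecam1, which summed to at most 7.76 CPM. Mitochondrially encoded genes held 0.496% of counts in mimetic, 0.707% in deficient and 0.412% in WT, against 0.933% in vector. The part of these shifts in the results below was not tested. Replicate 3 of deficient and replicate 3 of vector differed most from the other libraries of their own lines (chi-square per gene 17.1 to 23.6 and 13.7 to 21.2, against 2.96 to 6.24 for the other pairs).

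The promoter sequences of the 3 members with the largest fold changes, Crb3, Patj and Pard6b, are printed because all of them hold E-boxes near the annotated start. The sequences are from RefSeq on build GRCm38.p6 and run from 250 bases before to 50 bases after a transcript start, on the plus strand and 5′ to 3′. Capitals mark each CACCTG or its reverse complement CAGGTG (E-box), and each TACCTG or its reverse complement CAGGTA (Z-box). The Crb3 window is chr17:57061951-57062250, the Patj window chr4:98395576-98395875 and the Pard6b window chr2:168080754-168081053.
Crb3: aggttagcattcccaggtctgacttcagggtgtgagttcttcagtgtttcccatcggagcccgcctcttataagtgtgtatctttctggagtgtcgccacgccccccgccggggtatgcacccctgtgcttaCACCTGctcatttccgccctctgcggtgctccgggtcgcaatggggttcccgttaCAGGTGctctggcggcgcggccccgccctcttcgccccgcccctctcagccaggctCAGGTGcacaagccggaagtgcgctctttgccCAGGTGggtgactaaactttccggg
Patj: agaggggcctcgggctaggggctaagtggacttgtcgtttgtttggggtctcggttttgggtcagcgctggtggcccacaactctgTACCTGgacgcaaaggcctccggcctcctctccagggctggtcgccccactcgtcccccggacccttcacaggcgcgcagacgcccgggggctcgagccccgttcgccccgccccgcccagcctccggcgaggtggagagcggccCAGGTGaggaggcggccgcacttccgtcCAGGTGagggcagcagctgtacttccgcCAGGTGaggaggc
Pard6b: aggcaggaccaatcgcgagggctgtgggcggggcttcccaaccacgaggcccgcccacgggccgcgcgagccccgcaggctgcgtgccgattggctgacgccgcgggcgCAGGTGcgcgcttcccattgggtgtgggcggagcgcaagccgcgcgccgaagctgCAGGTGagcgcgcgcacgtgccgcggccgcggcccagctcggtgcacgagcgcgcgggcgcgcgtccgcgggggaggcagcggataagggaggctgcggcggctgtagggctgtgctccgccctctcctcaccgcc

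The Crb3 window holds 4 E-boxes, which start 118, 63 and 7 bases before the annotated start and at base 26 after it. The Patj window holds 3 E-boxes, 19 bases before the start and at bases 10 and 38 after it, with a Z-box 164 bases before it. The Pard6b window holds 2 E-boxes, 141 and 86 bases before the start. Among all 32851 RefSeq windows of this length, 20.2% hold at least 1 E-box, 2.88% at least 2, 0.365% at least 3 and 0.0548% at least 4, and 12% hold a Z-box. The table held windows for 7 of the 8 members, 14 windows in all, of which 6 have an E-box; the second Crb3 window overlaps the first and holds the same 4. The other 2 Patj starts, the Prkci, Llgl1 and first Pard3 windows and 3 of the 4 Dlg1 windows have no match, while the second Pard3 start has 3 E-boxes and 1 Dlg1 window has 1. Both Crb3 windows lie inside the GENCODE gene, whose first base, 57059105 on chromosome 17, is in no window and was not searched. A match describes the letters only, and which start the cells used was not measured.

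**Figure D1:**
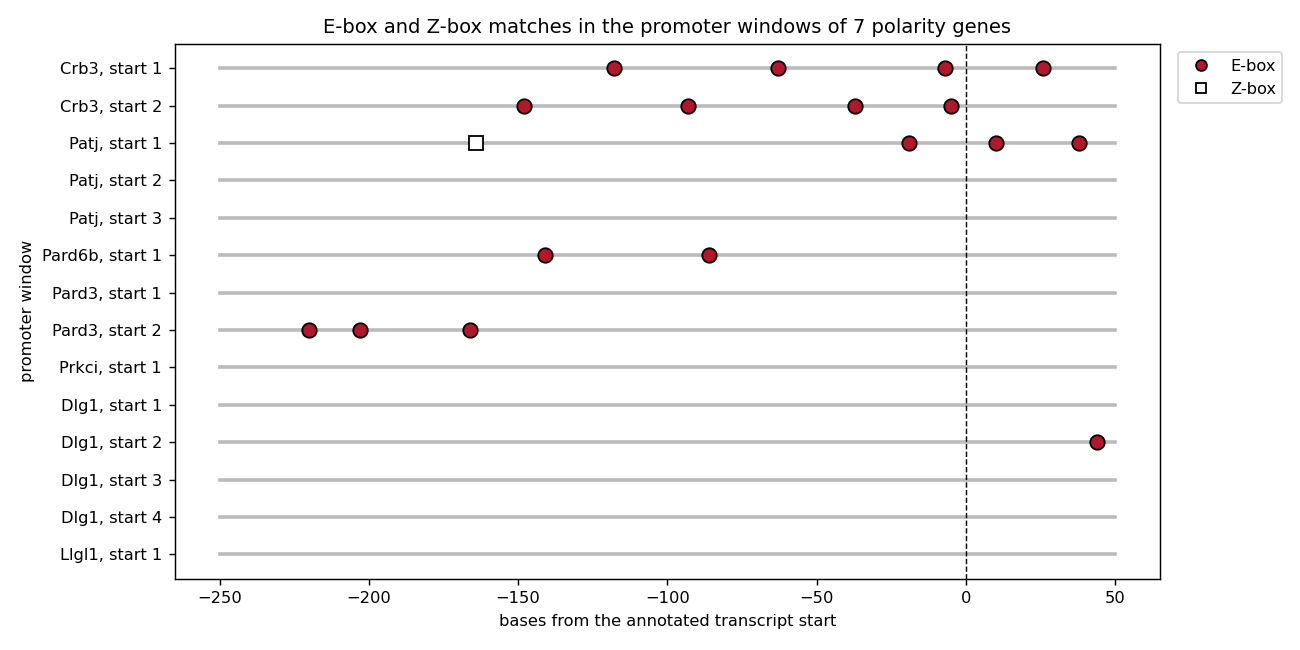
Positions of E-box (red circles) and Z-box (open square) matches in the 14 promoter windows of 7 members, in bases from the annotated transcript start; grey lines show the window searched. Crb3 has 4 E-boxes in each of its overlapping windows, the first Patj start has 3 and Pard6b has 2, whereas Prkci and Llgl1 have 0.

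Crb3 (ENSMUSG00000044279, chromosome 17, 57059105 to 57065918, GRCm38), the short transmembrane protein that anchors the Crumbs complex at the apical membrane, was lowest in WT and highest in deficient. It had 2.11, 2.09 and 1.45 CPM in the mimetic libraries, 5.22, 4.69 and 5.10 in deficient and 0.381, 0.226 and 0.249 in WT, against 2.45, 3.47 and 2.38 in vector. No pair of lines overlapped, so the order was deficient, vector, mimetic, WT. In bulk RNA, fewer cells that express a gene and less RNA per cell cannot be told apart, here or below. Relative to vector it was 9.65-fold lower in WT (log2 fold change -3.27, SE 0.29, adjusted p = 4.70e-09) by edgeR's quasi-likelihood test, which gives every adjusted p below unless another is named. It rose 1.81-fold in deficient against vector (log2 fold change 0.86, SE 0.19, adjusted p = 0.000792). Between the mutants it was 2.66-fold lower in mimetic than in deficient (log2 fold change -1.41, SE 0.21, adjusted p = 3.05e-05).

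The WT level of Crb3 rests on few reads, 11, 8 and 7 counts, and the gene passed the count filter through the other lines, so it had to be higher in another line to be tested. The smaller fall in mimetic against vector (log2 fold change -0.55, SE 0.22, adjusted p = 0.0340) rested on single libraries. The call was lost without mimetic replicate 3 (adjusted p = 0.166) and without vector replicate 2 (adjusted p = 0.197), whose Crb3 level was the highest of its line. It was also lost with limma-voom, with scaling by library size only and in a fit of these lines alone (adjusted p = 0.0552, 0.0624 and 0.0658). Against WT, Crb3 was 6.57-fold higher in mimetic and 17.5-fold higher in deficient (adjusted p = 6.18e-07 and 1.13e-10). The opposite-strand gene Dennd1c meets the annotated 3' end of Crb3, and counts for Dennd1c were not analysed here.

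Patj (ENSMUSG00000061859, chromosome 4, 98395785 to 98719603), the multi-PDZ scaffold of the Crumbs complex, fell in all 3 Zeb1 lines, and by the least in deficient. It had 27.4, 26.1 and 23.8 CPM in mimetic, 51.5, 55.5 and 54.5 in deficient and 16.0, 15.8 and 15.5 in WT, against 61.0, 58.9 and 64.3 in vector. The 4 lines formed 4 separate steps with no overlap, in the order vector, deficient, mimetic, WT. The fall against vector was 2.39-fold in mimetic (log2 fold change -1.26, SE 0.07, adjusted p = 1.15e-12) and 3.90-fold in WT (log2 fold change -1.96, SE 0.07, adjusted p = 9.51e-16). In deficient it was 1.14-fold (log2 fold change -0.19, SE 0.06, adjusted p = 0.0120), a call that was lost without deficient replicate 1 (adjusted p = 0.0641) or vector replicate 3 (adjusted p = 0.0512).

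The mutants differed in Patj, which was 2.09-fold lower in mimetic than in deficient (log2 fold change -1.07, SE 0.07, adjusted p = 1.63e-10). Both mutants kept more Patj RNA than WT, 1.63-fold in mimetic (log2 fold change 0.71, SE 0.07, adjusted p = 8.47e-08) and 3.41-fold in deficient (log2 fold change 1.77, SE 0.07, adjusted p = 1.55e-14). Zeb1 RNA itself was 1.98-fold higher in deficient than in WT (adjusted p = 2.07e-12), and its mean was 228 CPM in mimetic and 244 in WT. Introduced Zeb1 RNA and that of the cells' own gene were not told apart. The part of the Zeb1 level in the Patj values was not tested.

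**Figure D2:**
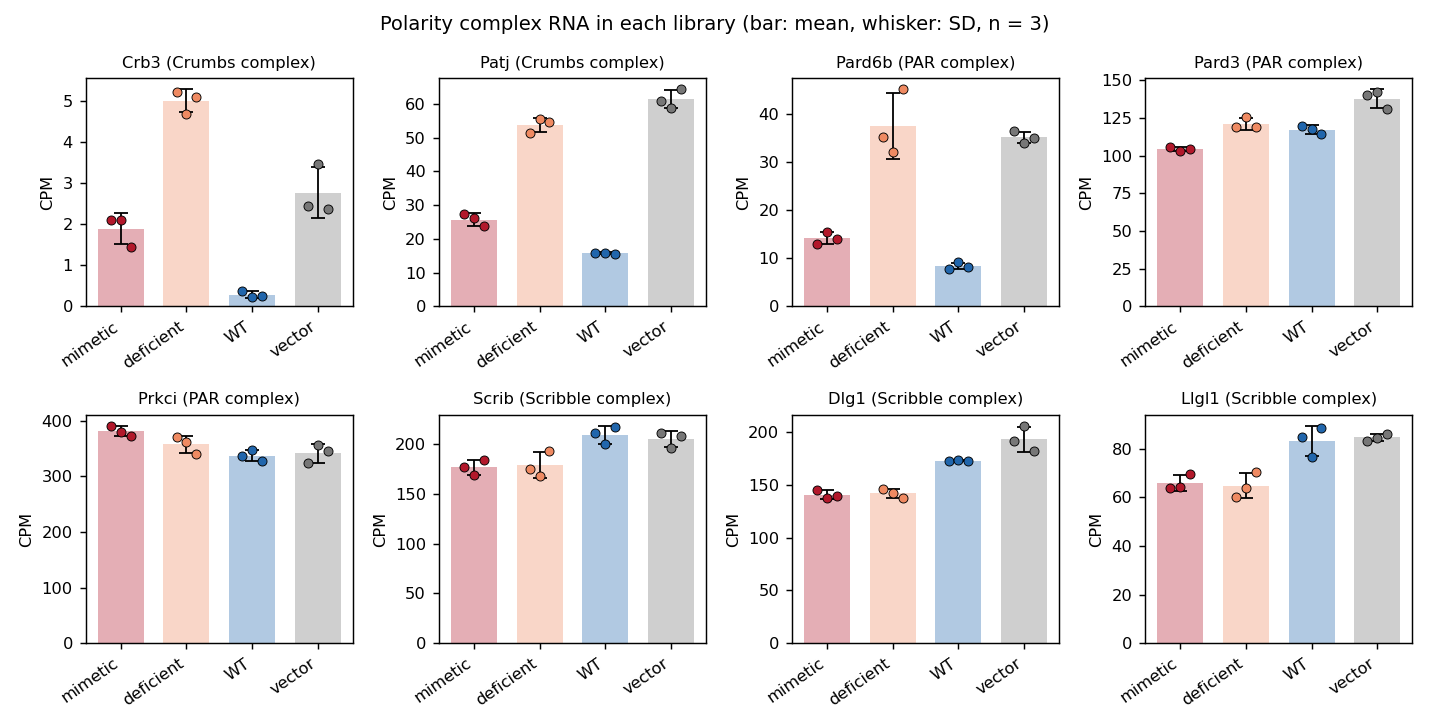
CPM of the 8 members in the 12 libraries, with lines on the x axis and CPM on a linear y axis from 0; points are libraries, bars means and whiskers SD (n = 3). Crb3, Patj and Pard6b are lowest in WT and stand near or above the vector level in deficient. The other 5 members differ by at most 1.37-fold between any pair of lines.

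Pard6b (ENSMUSG00000044641, chromosome 2, 168081004 to 168101203), the adaptor that couples the small GTPase CDC42 to atypical protein kinase C, was lower in mimetic and WT than in vector, as Patj was. It had 13.0, 15.5 and 13.99 CPM in mimetic, 35.1, 32.0 and 45.0 in deficient and 7.84, 9.14 and 8.12 in WT, against 36.3, 34.0 and 34.9 in vector. The mimetic and WT libraries were below all others and apart from each other, whereas deficient and vector overlapped. It fell 2.48-fold in mimetic (log2 fold change -1.31, SE 0.11, adjusted p = 1.51e-09) and 4.18-fold in WT (log2 fold change -2.06, SE 0.11, adjusted p = 1.53e-12) against vector. Deficient and vector did not differ beyond their spread (log2 fold change 0.09, 95% interval -0.11 to 0.30, adjusted p = 0.432). Deficient replicate 3 was the highest of all libraries, and without it the value was -0.06 on the log2 scale (adjusted p = 0.559).

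Pard6b was 2.64-fold lower in mimetic than in deficient (log2 fold change -1.40, SE 0.11, adjusted p = 3.22e-09). Against WT it was 1.69-fold higher in mimetic (log2 fold change 0.75, SE 0.12, adjusted p = 2.94e-05) and 4.46-fold higher in deficient (log2 fold change 2.16, SE 0.11, adjusted p = 1.78e-12). The annotation gives it 1 transcript and no overlapping gene (0).

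Pard3 (ENSMUSG00000025812, chromosome 8, 127063893 to 127612286), the scaffold that places the PAR complex at cell junctions, fell against vector in all 3 Zeb1 lines, by less than Patj or Pard6b did in mimetic and WT. It had 106, 103 and 104 CPM in mimetic, 119, 126 and 119 in deficient and 119.8, 118 and 114 in WT, against 140.4, 143 and 131 in vector. The vector libraries were above all others, mimetic was below all others, and deficient and WT overlapped. The fall against vector was 1.32-fold in mimetic, 1.14-fold in deficient and 1.18-fold in WT (adjusted p = 1.65e-07, 0.00116 and 0.000110). Mimetic was 1.16-fold below deficient (log2 fold change -0.21, SE 0.04, adjusted p = 0.00122) and 1.12-fold below WT (log2 fold change -0.17, SE 0.05, adjusted p = 0.00474). The last of these was lost with scaling by library size only (adjusted p = 0.0543). Deficient and WT did not differ beyond their spread (log2 fold change 0.05, 95% interval -0.05 to 0.14, adjusted p = 0.397).

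Prkci (ENSMUSG00000037643, chromosome 3, 30995747 to 31052959), the atypical protein kinase C iota that is the catalytic subunit of the PAR complex, differed by at most 1.13-fold in any comparison. It had 391, 379.5 and 374 CPM in mimetic, 370.2, 363 and 339.5 in deficient and 338, 347 and 327 in WT, against 324, 357 and 345 in vector. The mimetic libraries were above all others, and the other 3 lines overlapped. Prkci rose 1.11-fold in mimetic against vector (log2 fold change 0.16, SE 0.04, adjusted p = 0.00505) and was 1.13-fold higher in mimetic than in WT (log2 fold change 0.18, SE 0.04, adjusted p = 0.00317). No difference was called between WT and vector (log2 fold change -0.02, 95% interval -0.11 to 0.07, adjusted p = 0.724) or between deficient and vector (log2 fold change 0.06, 95% interval -0.03 to 0.16, adjusted p = 0.232).

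Other Prkci comparisons lay close to the threshold. Deficient against WT was not called (log2 fold change 0.08, 95% interval -0.01 to 0.18, adjusted p = 0.125) but was called without deficient replicate 3 (adjusted p = 0.0335), whose Prkci level was the lowest of its line, and at a minimum of 5 CPM in 3 libraries (adjusted p = 0.0431). Mimetic against deficient was not called (log2 fold change 0.09, 95% interval -0.000507 to 0.19, adjusted p = 0.134), although the libraries did not overlap. Scaling by library size only called all 3 differences that involve deficient (adjusted p = 0.0401 against vector, 0.0414 against WT and 0.0440 for mimetic against deficient).

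All 3 Scribble complex genes were lower in both mutants than in WT and vector. Of all tested genes, 30.9% fell in mimetic and 29.8% in deficient against vector. Scrib (ENSMUSG00000022568, chromosome 15, 76047158 to 76069784, minus strand), a LAP-family scaffold of the basolateral side, had 177, 169 and 184 CPM in mimetic, 175, 168 and 193 in deficient and 211, 199.6 and 217 in WT, against 211, 196 and 208 in vector. Every mutant library was below every WT and vector library, and the mutants overlapped each other, as did WT and vector. Scrib fell against vector 1.16-fold in mimetic (log2 fold change -0.22, SE 0.05, adjusted p = 0.00138) and 1.15-fold in deficient (log2 fold change -0.20, SE 0.05, adjusted p = 0.00294). WT and vector did not differ beyond their spread (log2 fold change 0.03, 95% interval -0.08 to 0.14, adjusted p = 0.658).

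Dlg1 (ENSMUSG00000022770, chromosome 16, 31663443 to 31875129), a membrane-associated guanylate kinase scaffold, had 145, 138 and 139 CPM in mimetic, 146, 142 and 138 in deficient and 173, 174 and 173 in WT, against 191, 206 and 182 in vector. WT stood apart between vector above it and the mutants below it, and the mutants overlapped each other. The fall against vector was 1.37-fold in mimetic, 1.36-fold in deficient and 1.12-fold in WT (adjusted p = 3.76e-08, 6.16e-08 and 0.00488).

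Llgl1 (ENSMUSG00000020536, chromosome 11, 60699723 to 60714186), a mammalian LGL protein and substrate of atypical protein kinase C, had 63.9, 64.1 and 69.8 CPM in mimetic, 60.2, 63.7 and 70.5 in deficient and 85.0, 76.5 and 88.4 in WT, against 83.4, 84.5 and 86.2 in vector. All mutant libraries were below all WT and vector libraries, and within each of these pairs of lines the values overlapped. Llgl1 fell 1.28-fold in mimetic (log2 fold change -0.36, SE 0.06, adjusted p = 4.87e-05) and 1.31-fold in deficient (log2 fold change -0.39, SE 0.06, adjusted p = 2.21e-05) against vector, and WT did not differ from vector beyond the spread (log2 fold change -0.03, 95% interval -0.15 to 0.10, adjusted p = 0.737). The opposite-strand gene Flii overlaps the 3' end of Llgl1, and without a stated counting strand reads of one cannot be told from reads of the other. Flii had a mean of 231 CPM in mimetic, 237 in deficient and 281 in WT, against 328 in vector, with log2 fold changes against vector of -0.50, -0.47 and -0.22 (adjusted p = 1.15e-09, 3.95e-09 and 6.12e-05). Its part in the Llgl1 values was not tested.

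Against WT, all 3 Scribble genes fell in both mutants, where 21.8% of all tested genes fell in mimetic and 26.3% in deficient. Scrib was 1.18-fold lower in mimetic and 1.17-fold lower in deficient (adjusted p = 0.000767 and 0.00114). Dlg1 was 1.23-fold and 1.22-fold lower in the same order (adjusted p = 2.48e-05 and 2.70e-05), and Llgl1 1.26-fold and 1.28-fold lower (adjusted p = 0.000209 and 6.35e-05). The limit from the overlapping gene Flii holds for Llgl1 here too. Mean Flii levels were 231 CPM in mimetic and 237 in deficient, against 281 in WT. Between mimetic and deficient none of the 3 (0) was called, where 27.4% of all tested genes were. The 95% intervals of the log2 fold change were -0.13 to 0.09 for Scrib, -0.11 to 0.08 for Dlg1 and -0.11 to 0.16 for Llgl1.

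Crb3, Patj and Pard6b passed 2-fold in some of the comparisons, and the other 5 members in none. The split did not hold in every comparison: in deficient against vector, Dlg1 and Llgl1 moved more than Patj and Pard6b did. In WT against vector 5 of 8 fell and none (0) rose. Of all tested genes, 33.6% fell, 31% rose and 64.6% were called in either direction. Crb3, Patj and Pard6b fell at least 2-fold, which 7.51% of all tested genes did. Crb3 passed the count filter only through lines other than WT, so its fall adds nothing to this count. In deficient against vector 5 fell and Crb3 rose, where 29.8% of all genes fell, 28.4% rose and 58.2% were called, and no member (0) reached 2-fold, where 2.98% of all genes fell and 5.56% rose at least 2-fold. In mimetic against vector 7 fell and Prkci rose, where 30.9% fell, 28.6% rose and 59.5% were called; Patj and Pard6b fell at least 2-fold, which 3.89% of all tested genes did. The members' median log2 fold change was -0.20 in WT, -0.19 in deficient and -0.43 in mimetic, against medians over all tested genes of -0.01, 0.00405 and -0.00442. Without regard to direction, the members' median was 0.196 in WT, 0.194 in deficient and 0.429 in mimetic. Over all tested genes it was 0.316, 0.268 and 0.278, so only in mimetic was the members' median the larger. These 3 comparisons share the vector libraries, and their calls are not independent of each other.

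Against WT the members moved both ways. In mimetic 4 rose (Crb3, Patj, Pard6b and Prkci) and 4 fell (Pard3, Scrib, Dlg1 and Llgl1), where 23.1% of all genes rose, 21.8% fell and 44.9% were called; Crb3 rose at least 2-fold, which 4.79% of all tested genes did. In deficient Crb3, Patj and Pard6b rose, all at least 2-fold, which 7.28% of all tested genes did, and the 3 Scribble genes fell. Of all tested genes, 27.5% rose, 26.3% fell and 53.8% were called. Crb3 was tested only because it was higher in lines other than WT, so its rise adds nothing to the mimetic or the deficient count. Between the mutants, 4 members fell in mimetic against deficient and none (0) rose, where 14.9% of all genes fell, 12.6% rose and 27.4% were called. Of the 4, Crb3, Patj and Pard6b fell at least 2-fold, which 1.63% of all tested genes did, and Pard3 fell 1.16-fold.

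**Figure D3:**
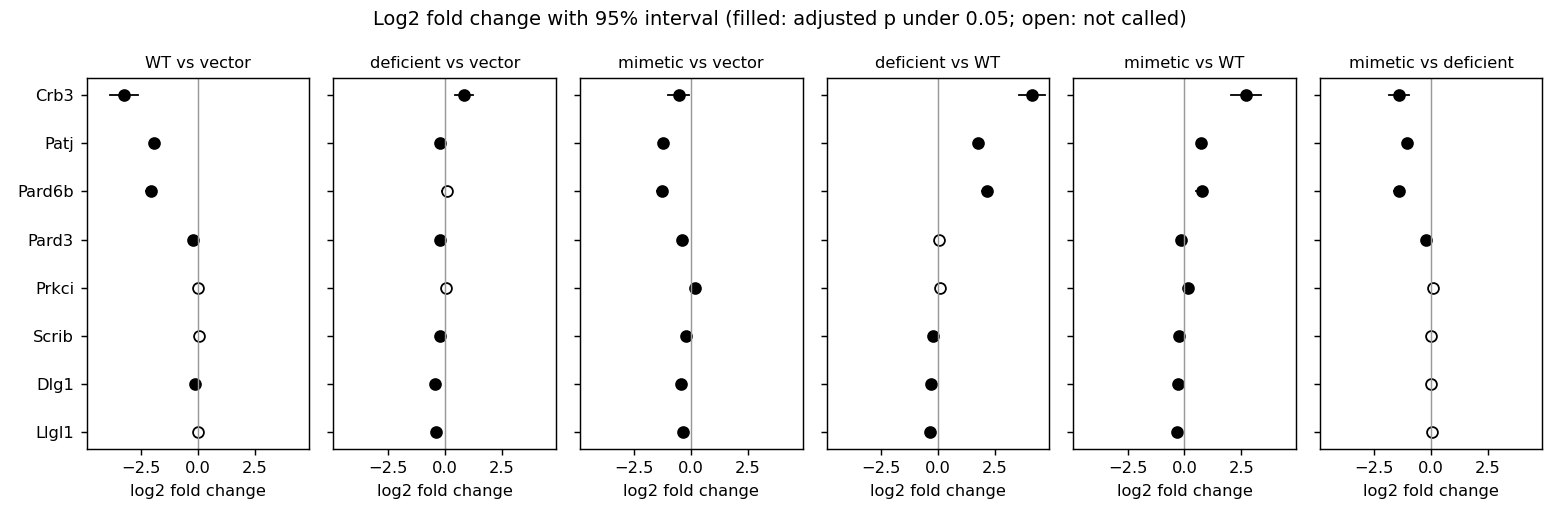
Log2 fold change (x axis) of each member (y axis) in the 6 comparisons, named as first line against second; bars are 95% intervals, filled points have an adjusted p under 0.05 and open points do not. Crb3, Patj and Pard6b lie far left of 0 in WT against vector and in mimetic against deficient and far right in deficient against WT, and no other member passes 2-fold in any comparison.

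Close relatives of the members did not all move with them. Mpdz (MUPP1), a multi-PDZ scaffold related to PATJ, moved opposite to Patj against vector. It had 50.2, 47.7 and 48.6 CPM in mimetic, 46.3, 44.4 and 38.4 in deficient and 87.7, 87.9 and 88.5 in WT, against 14.1, 13.7 and 13.4 in vector. It was higher than in every vector library in each Zeb1 line, 3.55-fold in mimetic, 3.13-fold in deficient and 6.40-fold in WT (adjusted p = 8.21e-15, 5.45e-14 and 7.66e-18). Of the counts of both genes, Patj held 35.3%, 35.3% and 32.9% in the mimetic libraries, 52.7%, 55.5% and 58.7% in deficient and 15.4%, 15.3% and 14.9% in WT, against 81.2%, 81.1% and 82.7% in vector. The summed level of both was 74.6 ± 2.73 CPM in mimetic, 96.9 ± 3.54 in deficient and 104 ± 0.179 in WT, against 75.2 ± 2.60 in vector (SD, n = 3 each).

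In the PAR6 family, Pard6g was higher in every Zeb1 line than in vector, where it was close to 0. Pard6g had 2.07, 1.87 and 2.13 CPM in mimetic, 1.30, 1.02 and 0.898 in deficient and 1.07, 1.30 and 1.53 in WT, against 0.121, 0.184 and 0.0528 in vector, where it rests on 4, 6 and 2 counts. All 3 vector libraries were under the filter's cutoff of 0.318 CPM, so the gene was tested only because it was higher in the Zeb1 lines, and the size of its fold changes is uncertain. Against vector its log2 fold change was 4.07 in mimetic (SE 0.39, adjusted p = 2.08e-08), 3.16 in deficient (SE 0.42, adjusted p = 1.82e-06) and 3.44 in WT (SE 0.41, adjusted p = 3.30e-07). Pard6a rose 1.28-fold in WT against vector (adjusted p = 0.00926). Pard6b held 59.2%, 63.2% and 63.7% of the counts of the 3 genes in mimetic, 81.0%, 81.8% and 85.1% in deficient and 43.1%, 43.9% and 41.8% in WT, against 82.3%, 82.6% and 80.7% in vector. Their summed level was 22.8 ± 1.44 CPM in mimetic, 45.2 ± 7.06 in deficient and 19.5 ± 1.33 in WT, against 42.8 ± 1.51 in vector (SD, n = 3 each), so the mimetic and WT sums stayed below the vector sum.

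Prkcz, the zeta form of atypical protein kinase C, changed far more than Prkci. It had 8.93, 7.17 and 9.63 CPM in mimetic, 21.5, 21.0 and 22.9 in deficient and 1.49, 1.02 and 1.21 in WT, against 21.0, 23.9 and 24.5 in vector. It fell 2.69-fold in mimetic (log2 fold change -1.43, SE 0.11, adjusted p = 6.72e-10) and 18.8-fold in WT (log2 fold change -4.23, SE 0.14, adjusted p = 7.51e-16), while deficient and vector overlapped and did not differ beyond their spread (log2 fold change -0.09, 95% interval -0.30 to 0.12, adjusted p = 0.482). Prkci held 97.8%, 98.1% and 97.5% of the counts of both kinases in mimetic, 94.5%, 94.5% and 93.7% in deficient and 99.6%, 99.7% and 99.6% in WT, against 93.9%, 93.7% and 93.4% in vector. Of the 3 RefSeq windows of Prkcz, the first holds 2 E-boxes and 1 Z-box, the second has no match and the third holds 1 E-box. Mpdz, Pard6g and Llgl2 had no window and were not searched.

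Llgl2, the second LGL gene, fell in all 3 Zeb1 lines. It had 7.22, 8.29 and 8.82 CPM in mimetic, 11.2, 14.2 and 14.9 in deficient and 4.09, 3.00 and 3.28 in WT, against 18.1, 17.4 and 21.9 in vector, 4 steps with no overlap. The fall against vector was 2.36-fold in mimetic (log2 fold change -1.24, SE 0.13, adjusted p = 6.46e-08), 1.43-fold in deficient (log2 fold change -0.51, SE 0.12, adjusted p = 0.00119) and 5.56-fold in WT (log2 fold change -2.48, SE 0.14, adjusted p = 4.32e-12). Llgl1 held 89.8%, 88.6% and 88.8% of the counts of both in mimetic, 84.3%, 81.8% and 82.6% in deficient and 95.4%, 96.2% and 96.4% in WT, against 82.2%, 82.9% and 79.8% in vector.

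Between the mutants, Prkcz was 2.54-fold and Llgl2 1.65-fold lower in mimetic than in deficient (adjusted p = 1.03e-08 and 0.000317). Pard6g was 1.88-fold higher (adjusted p = 0.0212), a call lost when mimetic replicate 1 or 3 or deficient replicate 2 or 3 was left out (adjusted p = 0.0585, 0.0648, 0.0634 and 0.0754). Mpdz was 1.13-fold higher (adjusted p = 0.0399), a call lost when mimetic replicate 1, 2 or 3, deficient replicate 2 or 3 or WT replicate 1 or 3 was left out, with adjusted p from 0.0510 to 0.202, the highest without deficient replicate 3.

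**Figure D4:**
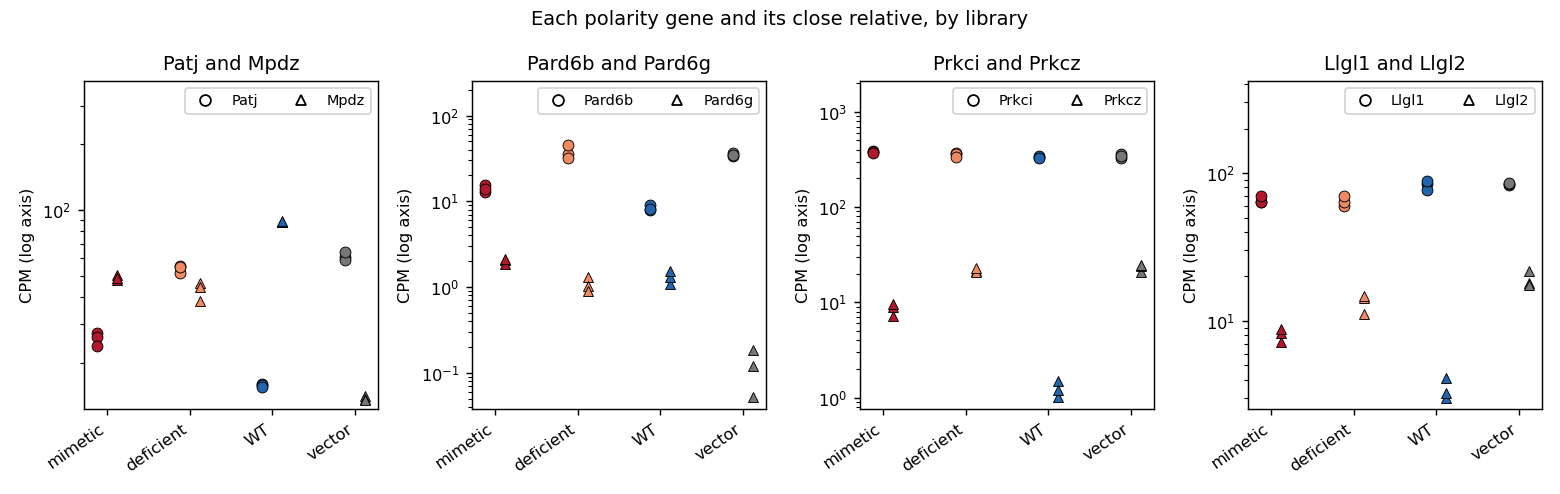
CPM on a log axis of 4 members (circles) and a close relative of each (triangles) in the 12 libraries, by line. Mpdz and Pard6g are lowest in vector, Prkcz and Llgl2 are lowest in WT, and Prkci and Llgl1 differ little between lines.

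The other 3 DLG genes in the table fell in WT against vector, as Dlg1 did, where 33.6% of all tested genes fell. Dlg3 fell 1.70-fold (log2 fold change -0.76, SE 0.08, adjusted p = 2.37e-08) and Dlg5 1.23-fold (adjusted p = 0.00249). Dlg4 fell 1.15-fold (adjusted p = 0.0447), a call lost when mimetic replicate 1 or 2, deficient replicate 1, WT replicate 2 or 3 or vector replicate 1 or 2 was left out, with adjusted p from 0.0501 to 0.230, the highest without vector replicate 1. It was also lost with RLE or library-size scaling, DESeq2 and the fit of both lines alone. Dlg4 was 1.26-fold higher in mimetic than in deficient (adjusted p = 0.0106), which was lost without mimetic replicate 3 (adjusted p = 0.0647) or deficient replicate 2 (adjusted p = 0.0570), while Dlg3 (log2 fold change -0.15, 95% interval -0.30 to 0.01, adjusted p = 0.165) and Dlg5 (log2 fold change 0.18, 95% interval 0.01 to 0.35, adjusted p = 0.104) were not called. Both of these were called without mimetic replicate 1 (adjusted p = 0.0433 and 0.0449).

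The remaining genes of the pathway were taken from 7 lists, with 76 tested genes besides the members. In WT against vector 43 of the 76 fell and 16 rose, where 33.6% of all tested genes fell and 31% rose; the median log2 fold change of the 76 was -0.22, against -0.01 over all tested genes. In mimetic against deficient 19 fell and 10 rose, where 14.9% of all tested genes fell and 12.6% rose; the median of the 76 was -0.03, against 0.00423 over all tested genes. Of 5 other Crumbs-complex genes tested, 3 fell and 2 rose in WT against vector, where 64.6% of all tested genes were called. Mpp5, which encodes the PALS1 link between CRB3 and PATJ, rose 1.17-fold (adjusted p = 0.000677), while Mpp7 and Lin7c fell 1.42-fold and 1.34-fold (adjusted p = 3.71e-05 and 4.72e-08). Mpp5 was 1.12-fold lower in mimetic than in deficient (adjusted p = 0.0312), a call lost when mimetic replicate 3, deficient replicate 1 or 2 or any WT replicate was left out (adjusted p from 0.0512 to 0.175, the highest without mimetic replicate 3), and Lin7c was not called (log2 fold change -0.01, 95% interval -0.11 to 0.08, adjusted p = 0.856).

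Of 6 other PAR-complex genes, 3 rose and 3 fell in WT against vector, where 31% of all tested genes rose and 33.6% fell. Beside Prkcz, Pard6a and Pard6g these included the GTPase Cdc42, 1.22-fold higher (log2 fold change 0.29, SE 0.04, adjusted p = 6.77e-06), and the exchange factor Tiam1, 1.73-fold lower (log2 fold change -0.79, SE 0.10, adjusted p = 9.60e-07). Neither Cdc42 nor Pard6a was called between mimetic and deficient (log2 fold change 0.03, 95% interval -0.06 to 0.12, adjusted p = 0.648, and log2 fold change -0.01, 95% interval -0.27 to 0.24, adjusted p = 0.955). All 6 other Scribble-complex genes fell in WT against vector, where 33.6% of all tested genes did. The Dlg4 call among them was lost under several alternatives, as given above. Erbin, a LAP protein related to Scrib, was 1.41-fold lower (log2 fold change -0.50, SE 0.05, adjusted p = 5.76e-08). Between mimetic and deficient 1 of these 6 fell (Llgl2) and 1 rose (Dlg4, in a call that rested on single libraries). Of all tested genes, 14.9% fell and 12.6% rose.

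Of 15 polarity partners and regulators, 11 fell and 3 rose in WT against vector, where 33.6% of all tested genes fell and 31% rose. Epb41l4b, a FERM-domain protein, was 1.46, 1.58 and 0.997 CPM in WT, against 16.2, 19.8 and 17.9 in vector, 13.2-fold lower (log2 fold change -3.72, SE 0.13, adjusted p = 1.96e-15). Its mimetic and deficient means were 15.1 and 16.9 CPM. Epb41l5, a FERM-domain partner of Crumbs, fell 2.41-fold and the RhoGAP gene Arhgap17 1.76-fold in WT against vector (adjusted p = 1.80e-11 and 3.90e-08). In mimetic against deficient 3 fell and 2 rose, a share near the 27.4% of all tested genes that were called. The scaffold Magi1, the Hippo-pathway protein Wwc1 and the exchange factor Arhgef18 were 1.46-fold, 1.25-fold and 1.18-fold lower (adjusted p = 1.90e-07, 2.21e-05 and 0.00165).

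Of 12 apical and basolateral membrane markers, 9 fell and 3 rose in WT against vector, where 33.6% of all tested genes fell and 31% rose. Between the mutants, 7 fell and none (0) rose in mimetic against deficient, where 14.9% of all tested genes fell and 12.6% rose; the markers' median log2 fold change was -0.27. The largest falls in WT against vector were in Cdh1, 3.38-fold, the apical fusion protein Stx3, 1.95-fold, and the vesicle fusion protein Vamp8, 1.94-fold (adjusted p = 3.10e-17, 1.48e-09 and 1.31e-12). Myo5b, a motor of apical recycling, had 16.0, 14.4 and 18.3 CPM in mimetic, against 40.4, 46.1 and 43.5 in deficient, 2.66-fold lower (log2 fold change -1.41, SE 0.08, adjusted p = 9.25e-11), while its WT and vector means were 20.1 and 23.8 CPM. Stx3 and Cdh1 were 1.86-fold and 1.55-fold lower in mimetic than in deficient (adjusted p = 2.41e-08 and 2.91e-09).

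Of 15 genes of the PAR-1 and LKB1 kinases and the 14-3-3 proteins, which bind phosphorylated polarity proteins, 5 fell and 3 rose in WT against vector, a smaller share than the 64.6% of all tested genes that were called. In mimetic against deficient 2 fell and 3 rose, near the 27.4% of all tested genes. In WT against vector the 14-3-3 gene Ywhaq was 1.54-fold higher, and the PAR-1 kinase Mark4 and the LKB1 partner Cab39l were 1.37-fold and 1.31-fold lower (adjusted p = 3.31e-11, 0.000524 and 5.34e-05). In mimetic against deficient the 14-3-3 gene Ywhab was 1.18-fold higher and the PAR-1 kinase Mark3 1.16-fold lower (adjusted p = 0.000558 and 0.000908). Strada, the LKB1 pseudokinase partner, was 1.21-fold higher (adjusted p = 0.0303), a call lost without mimetic replicate 2 (adjusted p = 0.229), deficient replicate 1 (adjusted p = 0.0622) or deficient replicate 2 (adjusted p = 0.115), and in the fit of both lines alone (adjusted p = 0.0598).

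**Figure D5:**
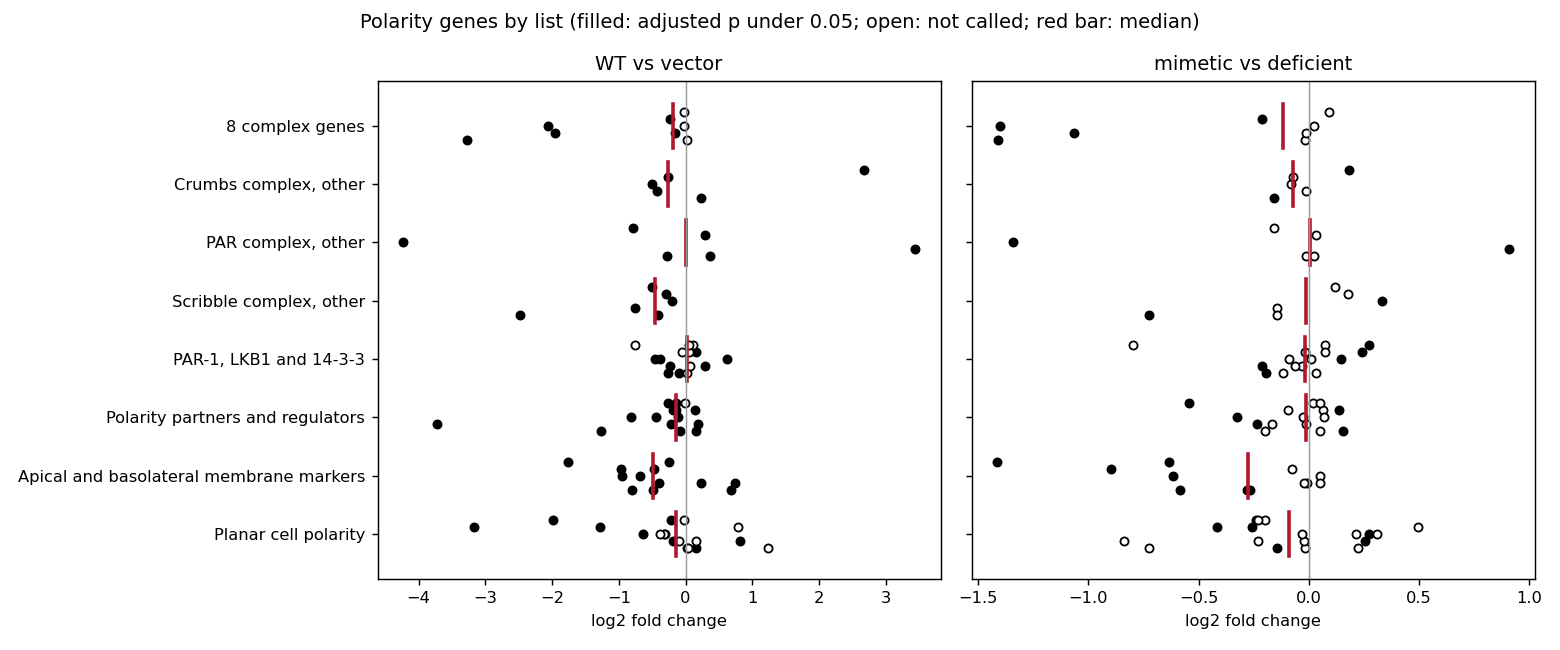
Log2 fold change (x axis, 1 point per tested gene) of the 8 members and 7 other polarity lists (y axis) in WT against vector and in mimetic against deficient; filled points have an adjusted p under 0.05, open points do not, red bars are medians, and each panel has its own x range. The list medians lie between -0.48 and 0.02 in WT against vector, with Mpdz and Pard6g far to the right of 0 and Prkcz, Epb41l4b, Crb3, Celsr1 and Llgl2 far to the left.

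The genes whose log2 CPM over the 12 libraries was most like that of a member are given as a description, since the 12 values fall into 4 lines. For Patj they were Stap2 and Cgn (Pearson r = 0.997 and 0.997), and for Pard6b Myh14, Cgn and Sft2d2 (r = 0.991, 0.990 and 0.987). Cgn, which encodes the tight junction protein cingulin, stood among the first 3 of both. For Crb3 they were Skil, Supt20 and Depdc7 (r = 0.987, 0.983 and 0.983). The top genes were Tnks2 for Pard3 (r = 0.975), Fastkd2 for Prkci (r = 0.942) and Spag9 for Dlg1 (r = 0.994). Fbxo31 was the first for both Scrib (r = 0.959) and Llgl1 (r = 0.986). The small GTPase Rac1, itself on the list of polarity partners, was the third for Prkci (r = 0.935).

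The spread between libraries of a line differed between members. The coefficient of variation within a line ran from 0.294% to 6.16% for Dlg1, from 2.28% to 4.97% for Prkci and from 1.54% to 7.06% for Patj. It reached 18.2% for Pard6b, in deficient, and 29.3% for Crb3, in WT, the line with the fewest Crb3 counts.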

How the data were processed

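RNA of 12 libraries, 3 per line, was analysed from the authors' deposited table of raw counts per gene, with no normalisation. Libraries were made with the QuantSeq 3' forward kit and sequenced paired-end, per the labels' protocols; STAR and mm10 are named in the submitters' processing notes. Which counter, strand setting and annotation were used is not given in the sources used here. Every listed gene has at least 1 count in each library, so genes lost completely in any line are not analysed here. Coordinates are from GENCODE M21 (GRCm38), where 12195 of 12208 IDs were found.

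edgeR 4.0.16 (R 4.3.3) was run on these counts with filterByExpr (181 genes removed, 12027 tested), TMM factors, 1 quasi-likelihood fit of all 12 libraries with lines as groups, 6 contrasts, and Benjamini-Hochberg adjustment over all tested genes, called under 0.05, two-sided. Only what passed is called risen or fallen. Standard errors are the log2 fold change divided by the square root of F. CPM are scaled by TMM-normalised library size. The procedure was tested on simulated data with far fewer changed genes than were called here. That test therefore could not check the scaling in these comparisons.

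The members, lists and tests were chosen with earlier results of these data known. All members are named, with up to 3 genes per list with the largest called, non-overlapping change in WT against vector and in mimetic against deficient, close relatives and partners of members, and the 3 genes of at least 10 CPM most correlated with each member (for 5 members only those singled out here, and 1 gene is not reported here). Flii was added because it overlaps Llgl1. Alternatives were RLE factors, library size only, DESeq2 1.42.0, limma-voom (limma 3.58.1), no filter, a minimum of 5 CPM in 3 libraries, separate fits for each pair of lines, replicate number as a block, and omission of each library in turn.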

Additional observations from a re-analysis of the deposited data

How the results depend on the processing

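The 48 member comparisons were recomputed under 20 alternatives (12 of them leaving out 1 library), which gave 954 values, since Crb3 was not tested at a minimum of 5 CPM. Of these, 928 kept direction and side of the threshold, 8 lost a call, 5 gained one and 13 turned direction. No called member difference turned direction (0 under the alternatives run). The turns were in differences that were not called: with library size only, mimetic against deficient became 0.0104 for Scrib and 0.0156 for Dlg1 on the log2 scale. Values of other named genes were counted apart from these, and 7 of them turned direction. With library size only, mimetic against deficient became 0.0154 for Lin7c and 0.0170 for Pard6a, which are not members. With a library left out, mimetic against deficient ranged over -0.0609 to 0.0406 for Scrib, -0.0369 to 0.00796 for Dlg1 and -0.0254 to 0.0899 for Llgl1, and outside the members over -0.0495 to 0.0188 for Lin7c and -0.0735 to 0.0731 for Pard6a. WT against vector ranged over -0.0573 to 0.0137 for Prkci, -0.00185 to 0.0639 for Scrib and -0.0671 to 0.0364 for Llgl1, and deficient against vector over -0.0613 to 0.193 for Pard6b. Counts of called genes and of called members stayed within 1.5 times in every alternative run. Library size only moved the split of calls in mimetic against vector to 4334 higher and 3004 lower, against 3438 and 3720 with TMM, and in mimetic against WT to 3506 and 1980, against 2780 and 2618, and in mimetic against deficient to 1982 and 1509, against 1510 and 1789. Replicate numbers did not pair the libraries (1 of 18 same-numbered pairs correlated above 0.1, and 5 of 12 libraries correlated best with their own number); the replicate block called 7852, 7080 and 7250 genes in WT, deficient and mimetic against vector, 6573 and 5514 in deficient and mimetic against WT, and 3378 in mimetic against deficient, and changed no member's call. Depth limits Crb3 and Celsr2 in WT and Pard6g in vector.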

Other observations

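Planar cell polarity, which orders cells within the sheet, shares Scrib with the apical-basal complexes. Of 18 tested genes of its list, 6 fell and 2 rose in WT against vector, a smaller share than the 64.6% of all tested genes that were called. In mimetic against deficient 4 fell and 2 rose, near the 27.4% of all tested genes. The atypical cadherin Celsr1 had 112, 114 and 128 CPM in mimetic, 135, 137 and 152 in deficient and 22.4, 22.9 and 23.1 in WT, against 206, 214 and 194 in vector. All 4 lines were apart from each other, with the lowest level in WT, 8.96-fold below vector (log2 fold change -3.16, SE 0.06, adjusted p = 1.33e-19, edgeR's quasi-likelihood test), and mimetic was 1.20-fold below deficient (adjusted p = 0.00165). The related Celsr2 and the receptor Fzd6 had their lowest mean in WT and their highest in deficient. Celsr2 had a mean of 6.54 ± 1.23 CPM in mimetic, 7.53 ± 1.02 in deficient and 0.440 ± 0.176 in WT, against 1.75 ± 0.350 in vector, and Fzd6 18.7 ± 1.88, 24.9 ± 0.338 and 5.73 ± 0.670, against 13.9 ± 0.856 (SD, n = 3 each). WT was 3.97-fold below vector for Celsr2 and 2.42-fold for Fzd6 (adjusted p = 6.02e-06 and 1.32e-09), and mimetic was 1.33-fold below deficient for Fzd6 (adjusted p = 0.00193). The WT level of Celsr2 rests on few reads, 9, 13 and 18 counts, and replicate 1 was under the filter's cutoff of 0.318 CPM. Celsr2 therefore passed the count filter through the other lines, and the size of its fold change is uncertain. The giant cadherin Fat1 was 1.21-fold higher in mimetic than in deficient (adjusted p = 0.0169), a call lost without mimetic replicate 3 (adjusted p = 0.0903), deficient replicate 1 (adjusted p = 0.0543) or deficient replicate 2 (adjusted p = 0.0746).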
